A study of Mus musculus with 12 samples.

Results

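To describe bone morphogenetic protein (BMP) and TGF-beta signalling genes in livers with and without microbial colonization, 6 of the 41128 genes of a liver RNA sequencing table were examined: the ligand gene Bmp2, the target genes Id1, Id2 and Id3, and the inhibitory Smad genes Smad6 and Smad7. The genes were matched by symbol and had been selected on their difference between the conditions. That difference is therefore given for them as a description, with no test. Of the 6 genes, 6 passed the filter on low values, a mean of at least 10 normalized reads.

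All 12 mice were C57BL/6, were germ-free littermates until weaning at about day 21, and were killed at 6 weeks of age. The germ-free (GF) mice stayed in sterile isolators. The conventionalized (CV) mice lived for the last 3 weeks in ordinary cages on used bedding, which carries an undefined set of microbes. Each condition held 3 males and 3 females by the labels, with 1 library of snap-frozen whole liver per mouse. The change of housing and the arrival of microbes cannot be told apart in this design, and in whole tissue fewer cells of a type and less RNA per cell cannot be told apart either.

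BMP and TGF-beta ligands bind pairs of serine/threonine kinase receptors, which phosphorylate receptor-regulated Smad proteins. BMP receptors act mainly on Smad1, Smad5 and Smad9, TGF-beta and activin receptors mainly on Smad2 and Smad3, and both sets join Smad4 to enter the nucleus. Id1, Id2 and Id3 are direct BMP targets that encode helix-loop-helix proteins without a DNA-binding region, which capture E proteins and keep them from DNA. Smad6 and Smad7 are targets as well and act as feedback inhibitors of the receptors. In the liver, endothelial BMP ligands drive hepatocytes to make hepcidin, the hormone that limits iron uptake.

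The values are reads divided by 1 size factor per library, called normalized reads below. Whole reads per library ranged from 5993619 to 15290835. A set of 7 abundant loci, the mitochondrial ribosomal RNA genes among them, held 41.8 to 69.4% of the reads in GF libraries and 5.39 to 21.9% in CV libraries, so reads outside them were 1834565 to 5303292 in GF and 6943462 to 14411498 in CV. Within the CV males this share was 5.39% in replicate 1 and 21.4 and 21.9% in replicates 2 and 3. For 4 Y-linked genes, 5 of the libraries labelled male had 796 to 1314 reads in sum and the one labelled CV male 3 had 0. Xist, the RNA of the inactive X chromosome in females, had 2382 normalized reads in that library, 4.68 to 21.3 in the other libraries labelled male and 1045 to 11928 in those labelled female. Both readouts go against the male label, so the library may come from a female. It is called by its label throughout, and the condition differences of the 6 genes in males are also given without it. The median log2 change of all 11782 genes tested was 0.07 over both sexes with the deposited scaling, 0.62 relative to all reads and -0.38 relative to those outside the 7 loci. Every direction below is relative to the deposited scaling.

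RefSeq promoter windows, from 250 bases before to 50 bases after the start site, were given for Id2, Id3 and Smad6. They were searched on both strands for GGCGCC (a GC-rich element of BMP-regulated Smads), GTCTAGAC (a palindrome of the Smad-binding box), CAGAC (the box itself) and CANNTG (the E-box bound by E proteins). No motif match overlapped another. Smad6 (ENSMUSG00000036867, chr9:63953076-64022059, minus strand, GRCm38) held GTCTAGAC from 4 bases before to 4 bases after its start, a motif found in 0.213% of 32851 windows. Its window is printed from 250 bases before the start to the end of the palindrome, on the minus strand of build GRCm38.p6 at chr9:64022056-64022309, with the palindrome in capitals.
Smad6: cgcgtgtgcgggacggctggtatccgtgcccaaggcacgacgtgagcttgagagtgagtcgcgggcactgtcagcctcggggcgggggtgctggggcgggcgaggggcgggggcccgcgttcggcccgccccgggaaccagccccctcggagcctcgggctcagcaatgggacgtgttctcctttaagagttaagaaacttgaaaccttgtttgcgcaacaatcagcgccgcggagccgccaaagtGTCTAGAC
Id2 (ENSMUSG00000020644, chr12:25093799-25097140, minus strand) has a RefSeq start site at chr12:25096092, which lies 1048 bases inside the GENCODE gene. It held GGCGCC beginning at position -231 from that RefSeq start, a motif found in 11.9% of windows. The 30 bases around it lie within the GENCODE gene but outside its annotated exons, at chr12:25096306-25096335 on the minus strand, with the element in capitals.
Id2: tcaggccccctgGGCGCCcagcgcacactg
The Id3 window held CAGAC or its complement at 167 and 68 bases before the start, which 49.6% of windows did. E-box letters were found in the Id2 and Smad6 windows and in 72.3% of all windows. These matches describe letters in a window and not bound sites.

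Bmp2 (ENSMUSG00000027358, chr2:133552159-133562885), a ligand that liver endothelial cells secrete, was the member with lower values in CV livers of both sexes. It had 157, 130 and 123 normalized reads in GF males 1 to 3 and 29.1, 85.9 and 118 in CV males. GF females had 196, 199 and 123 and CV females 73.2, 81.3 and 84.3. All 6 CV libraries lay below all 6 GF libraries, and CV male 1 was the lowest of the 12. The log2 change was -1.02 ± 0.38 (SE) in males and -1.08 ± 0.38 in females, or 0.495 and 0.474 of the GF level. Such a separation, with the 3 CV values under the 3 GF values of a labelled sex, held for 21.1% of the genes tested in males and for 31% in females. The share of genes with all 6 CV values under all 6 GF values was not counted. The size in males rested on single CV libraries, with -0.43 without CV male 1 and -1.42 without CV male 3. The summed value of 8 markers of sinusoidal endothelial cells spanned 1504 to 4154 in GF mice and 728 to 2043 in CV mice, with CV male 1 the lowest, and 0 of the 8 markers were at 0 in any group. In limma over both sexes 2 of the 8 were lower in CV, Stab1 (-1.73 ± 0.33, adjusted p = 0.00032) and Stab2 (-1.87 ± 0.28, adjusted p = 4.05e-05), and the other 6 were not called, with changes from -0.38 (Pecam1) to 0.32 (Clec4g). In this contrast 28.7% of all genes tested were lower. Within the GF females the sum and Bmp2 ran in opposite orders, since GF female 3 had the highest sum (4154) and the lowest Bmp2 value and GF female 2 the lowest sum (2232) and the highest Bmp2 value. Among the GF males, GF male 3 had the highest sum (2542) and the lowest Bmp2 value. The CV groups differed from this, since CV male 1 was the lowest of its group in both measures. CV female 3 was the highest of its group in both (sum 1591). The part of endothelial RNA in the Bmp2 difference was not tested.

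Id1 (ENSMUSG00000042745, chr2:152736251-152737410), the Id gene most used as a readout of BMP signalling, had higher values in CV livers. It had 48.4, 63.9 and 41.1 normalized reads in GF males and 162, 169 and 215 in CV males. In females it had 83.0, 87.8 and 78.6 in GF and 151, 166 and 126 in CV. Its lowest CV value exceeded its highest GF value. The log2 change was 1.82 ± 0.24 in males, a 3.54-fold difference, and 0.82 ± 0.24 in females, a 1.76-fold difference.

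Id3 (ENSMUSG00000007872, chr4:136143497-136145755) followed the same order of groups. GF males had 296, 270 and 257 normalized reads and CV males 812, 1323 and 1094. GF females had 314, 439 and 376 and CV females 533, 747 and 676. Again the highest GF value was under the lowest CV value. The shares of all genes that separated within a labelled sex, 22% in males and 34% in females, apply here as well. The log2 change was 1.94 ± 0.24 in males, 3.84-fold, and 0.79 ± 0.24 in females, 1.73-fold.

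Id2, which is also regulated by signals other than BMP, differed by a similar amount in both sexes. It had 862, 986 and 451 normalized reads in GF males and 1041, 1472 and 1750 in CV males. In females it had 460, 473 and 525 in GF and 818, 861 and 1111 in CV. The libraries of each sex did not overlap, but GF males 1 and 2 reached the range of the CV females. The log2 change was 0.93 ± 0.29 in males and 0.92 ± 0.29 in females, 1.91-fold and 1.90-fold. The 3 CV values exceeded the 3 GF values of a labelled sex in 22% of all genes tested in males and in 34% in females. Whether the larger male changes of Id1 and Id3 differ from the female ones was not tested, since the condition difference had chosen the genes. Without CV male 3 the changes in males were 1.70 for Id1, 0.77 for Id2 and 1.92 for Id3, and without GF male 3 that of Id2 was 0.59.

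Smad6, the inhibitor that acts mainly on BMP receptors and their Smads, rested on 11 to 150 reads per library. It had 78.8, 20.0 and 31.2 normalized reads in GF males and 32.3, 77.9 and 69.0 in CV males. The male groups overlapped, since GF male 1 was the highest of the 6 and CV male 1 lay among the GF values. GF females had 24.2, 29.3 and 34.5 and CV females 63.1, 52.4 and 79.5, without overlap. The log2 change was 0.59 ± 0.43 in males and 1.12 ± 0.43 in females.

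Smad7 (ENSMUSG00000025880, chr18:75367529-75395935), which inhibits both TGF-beta and BMP receptors, overlapped between the conditions in both sexes. It had 79.7, 53.2 and 52.4 normalized reads in GF males and 63.5, 113 and 107 in CV males. GF females had 75.5, 98.4 and 128 and CV females 78.2, 75.9 and 67.4. The signs of the differences were opposite, with log2 changes of 0.59 ± 0.29 in males and -0.41 ± 0.29 in females. Without CV male 3 the male changes were 0.48 for Smad7 and 0.44 for Smad6. The male change of Smad6 was 1.13 without GF male 1, 0.17 without GF male 2, 0.98 without CV male 1 and 0.35 without CV male 2, and the female change of Smad7 was -0.22 without GF female 3.

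**Figure D1:**
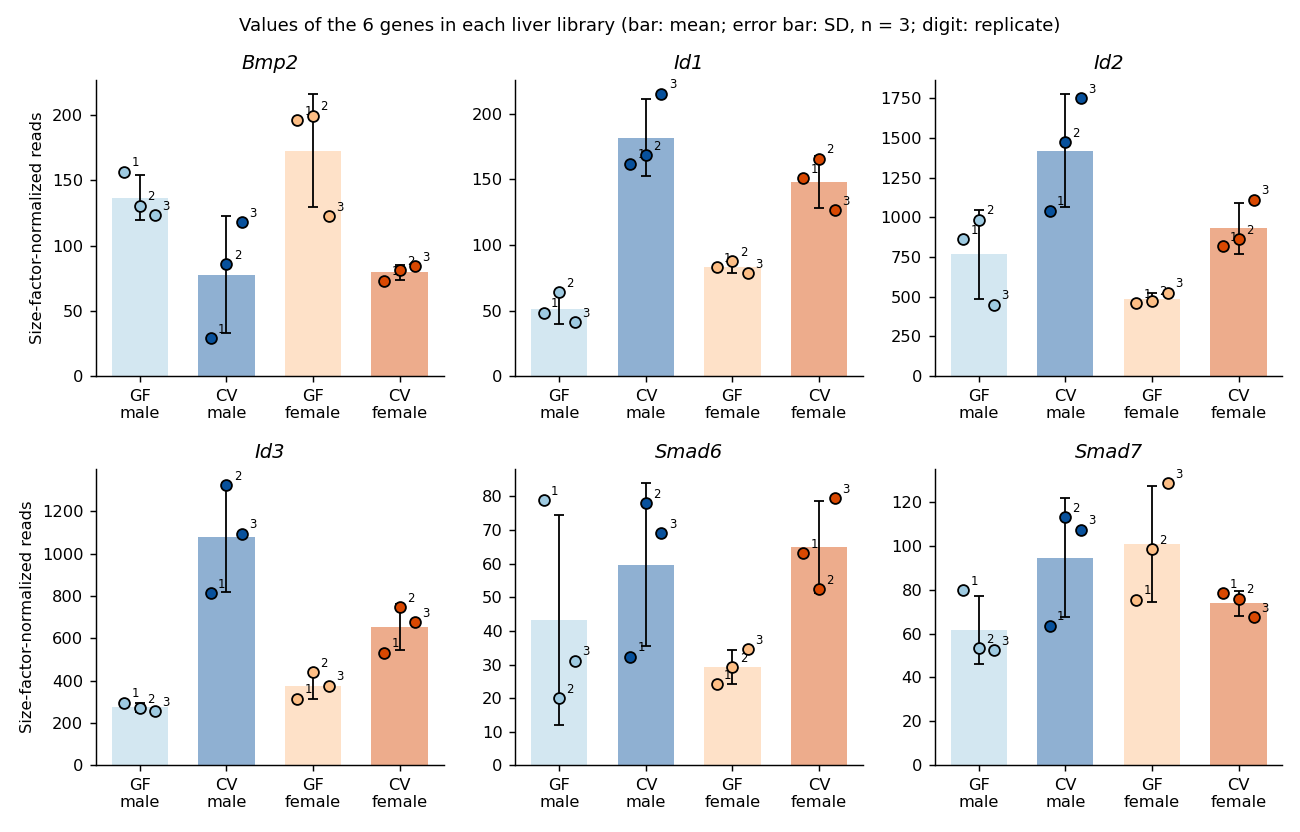
Normalized reads (vertical axes, from 0) of the 6 genes in the 4 groups, with a point per library marked by its replicate number, bars for group means and error bars for the SD of 3 libraries. Bmp2 sits lower and Id1, Id2 and Id3 sit higher in CV than in GF libraries of each sex, while Smad7 and, in males, Smad6 overlap.

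Levels of different genes were compared per kilobase of exon. In CV males Id3 (601 ± 143 normalized reads per kilobase, SD, n = 3) and Id2 (583 ± 147) stood highest with overlapping libraries, followed by Id1 (157 ± 25.1). Bmp2 (21.9 ± 12.7), Smad7 (20.9 ± 5.98) and Smad6 (18.6 ± 7.55) overlapped at the bottom. Per kilobase, every Id value in CV livers was above every value of the ligand and of both inhibitors. In CV females Id2 (381 ± 64.9) and Id3 (364 ± 60.9) overlapped, Id1 stood at 127 ± 17.2, and Smad6 (20.3 ± 4.26) overlapped with both Bmp2 (22.4 ± 1.62) and Smad7 (16.3 ± 1.26). In GF males Id2 (314 ± 115) lay above Id3 (153 ± 11.3), while Id1 (44.1 ± 10.0) overlapped with Bmp2 (38.5 ± 4.95), and Smad7 (13.7 ± 3.43) with Smad6 (13.5 ± 9.75). In GF females the order was Id3 (210 ± 34.9), Id2 (199.5 ± 14.1), Id1 (71.7 ± 3.96), Bmp2 (48.6 ± 12.2), Smad7 (22.3 ± 5.87) and Smad6 (9.14 ± 1.62), with overlap of Id3 and Id2 alone. Per kilobase, Bmp2 thus exceeded Smad7 in every GF library, and the Bmp2 and Smad6 libraries overlapped in CV.

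A ratio of 2 genes within a library does not depend on the factor by which the whole library is scaled. The ratios here are of normalized reads, not per kilobase, so they compare libraries and do not rank the genes by level. Id1 had 0.309 to 0.641 times the value of Bmp2 in GF mice and 1.50 to 5.55 times in CV mice. Id3 had 1.60 to 3.06 times its value in GF and 7.28 to 27.9 times in CV, and Smad6 had 0.123 to 0.503 times in GF and 0.585 to 1.11 times in CV. In each of these ratios the lowest CV value exceeded the highest GF value, and CV male 1 was the highest. For Id1 and Id3 this separation was fixed in advance, since neither they nor Bmp2 had overlapped between the conditions. Smad7 had 0.385 to 1.05 times the value of Bmp2 in GF and 0.800 to 2.18 times in CV, so that its ratios overlapped between the conditions through GF female 3. No test was made of the ratios because the condition difference had chosen the genes.

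**Figure D2:**
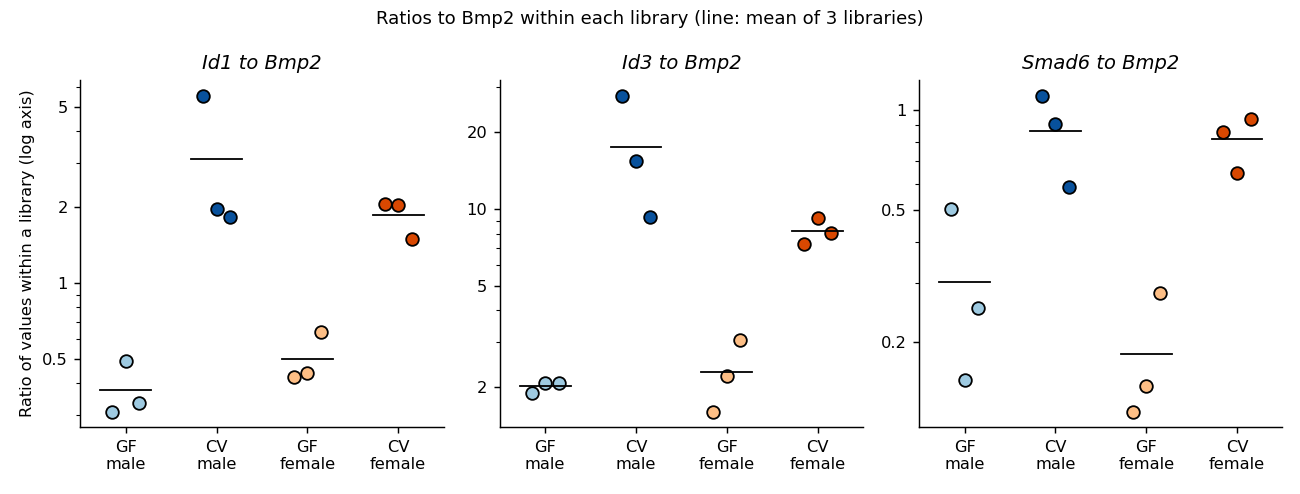
Ratios of normalized reads, not per kilobase, of Id1, Id3 and Smad6 to Bmp2 within each library (log axes), with a point per library in the 4 groups and a line at the mean of 3 libraries. The Id1 ratios lie between 0.309 and 0.641 in GF and between 1.50 and 5.55 in CV livers.

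The size of each single-gene difference did depend on the scaling. In males Id1 and Id3 kept a log2 change of at least 1.40 and 1.53 under the 4 scalings compared. In females they changed by 1.62 and 1.60 when scaled to all reads, by 0.20 and 0.17 relative to reads outside the 7 loci, and by -0.02 and -0.01 when a trend on transcript length and GC content was removed within each library. The exon lengths of Id1 (1160 bases) and Id3 (1791 bases) were greater than those of 4.1 and 11.2% of the genes tested. Id2 in females changed by 1.73, 0.30 and 0.53 under these 3 settings. Bmp2 remained below 0 in all of them, with -0.71 in males and -0.27 in females when scaled to all reads and -1.20 and -1.46 with the trend removed. Smad7 in females changed sign to 0.39 when scaled to all reads.

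**Figure D3:**
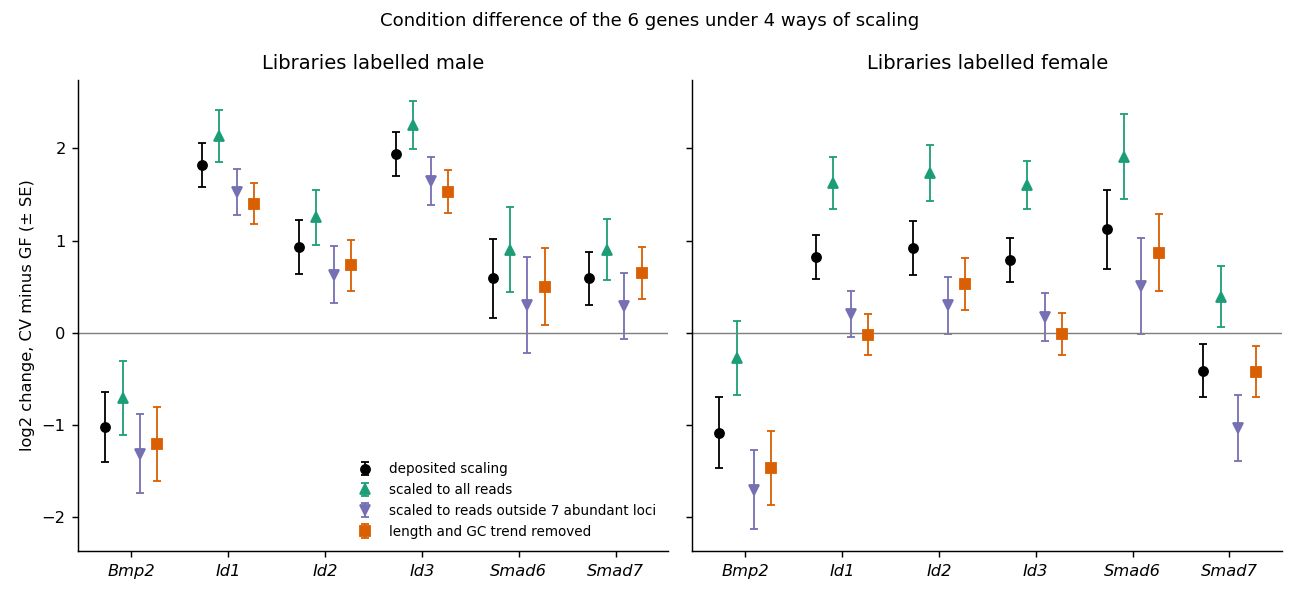
log2 change between CV and GF livers with its SE (vertical axis) of the 6 genes in libraries labelled male and female, for the deposited scaling and 3 others. The male changes of Id1 and Id3 stay at 1.40 or above, while those in females fall to -0.02 and -0.01 with the length and GC trend removed.

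Within groups, the values of the members were also compared with the share of the 7 abundant loci. Deviations from the group means were correlated over 12 libraries, with exact two-sided permutation within groups and Benjamini-Hochberg adjustment over all 11782 genes. Pearson's r was 0.94 for Smad7 (permutation p = 0.0177) and Spearman's rho 0.91 (p = 0.0239). Smad6 gave r = 0.82 (permutation p = 0.0177) and rho = 0.85 (p = 0.0162). Id3 gave r = 0.79 (permutation p = 0.0116) and rho = 0.73 (p = 0.0216). At an unadjusted p under 0.05, 3 of the 6 members thus had a positive correlation, where 4.47% of all genes did by r and 4.33% by rho (8.79% and 8.69% with either sign). After adjustment 0 of the 6 passed, with adjusted p from 0.5 to 0.878, and 0% of all genes did by either measure. Bmp2 (r = 0.65, rho = 0.57), Id2 (0.57, 0.59) and Id1 (0.18, 0.17) had permutation p of 0.149, 0.172 and 0.544 for r and 0.129, 0.156 and 0.634 for rho. Without CV male 1 and GF female 1, the libraries whose share deviated most from that of their own group, r was 0.87 for Smad7, 0.83 for Smad6, 0.56 for Id3, 0.51 for Bmp2, 0.47 for Id2 and 0.00 for Id1. The group means behind these deviations still included both libraries left out, so their influence was not fully removed. The part of library composition in the condition difference of these genes was not tested, since the groups themselves held 95.3% of the variance of that share.

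**Figure D4:**
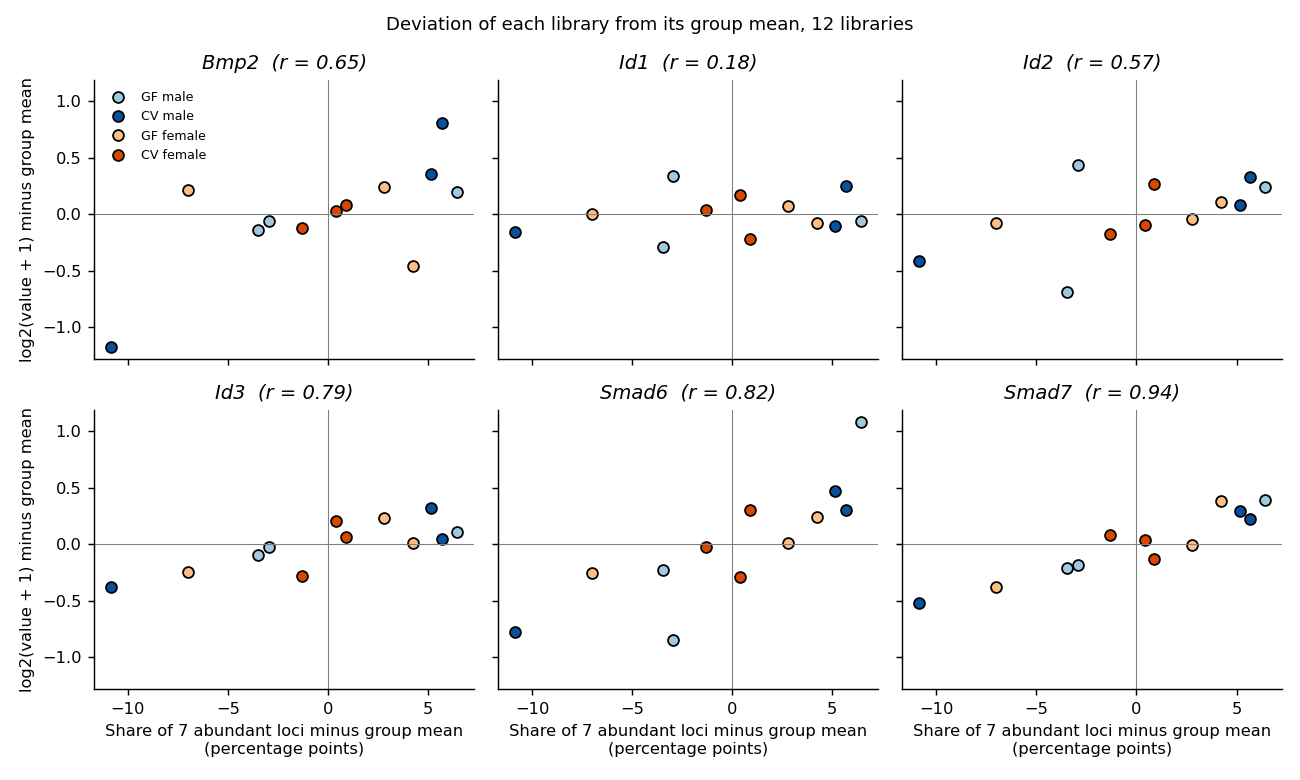
Deviation of log2(value + 1) from the group mean (vertical axes) against the deviation of the share of the 7 abundant loci in percentage points (horizontal axes), a point per library in 4 groups. The points of Smad7 rise with the share (r = 0.94) and those of Id1 do not (r = 0.18).

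Of the marker lists of other cell types, those of lymphocytes had summed values that did not overlap between the conditions, with 234 to 482 in GF and 51.5 to 127 in CV mice, and all 4 of the 6 markers that passed the filter were lower in limma over both sexes. In this contrast 28.7% of all genes tested were lower and 32.3% higher. The 5 red blood cell markers summed to 2777 to 32880 in GF and 916 to 3159 in CV, with 4 lower. The sums of the 7 stellate cell markers (1996 to 3623 in GF, 2359 to 4246 in CV; 3 higher, 1 lower) and the 6 Kupffer cell markers (752 to 1493 and 871 to 2007; 3 higher) overlapped. The 6 hepatocyte markers summed to 86930 to 439900 in GF and 360100 to 589400 in CV, with 4 higher. Of the 5 bile duct markers 0 were called in limma, and their sums overlapped (453 to 1059 and 527 to 1616). No marker was at 0 in any group, the hepatocyte markers that define the labelled tissue included. The part of these cell types in the values of the members was not tested.

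To ask whether the members differed between the labelled sexes, a contrast that had not selected them, males and females were compared within each condition with limma, adjusted over all 11782 genes. At an adjusted p under 0.05, 0 of the 6 genes were called in GF livers and 0 in CV livers, where 1.63% and 0.0594% of all genes were called. At an unadjusted p under 0.05 there were 2 in GF and 1 in CV, where limma had 17.6% and 5.1% of all genes. With edgeR there were 2 and 1 (16.6% and 6.03% of all genes) and with DESeq2 3 and 2 (17.5% and 7.01%). In GF livers the difference of males from females was -0.71 for Id1 (95% interval -1.23 to -0.20, limma adjusted p = 0.141). For Id3 it was -0.44 in GF livers (-0.96 to 0.07, adjusted p = 0.349). In CV livers, with CV male 3 among the males, that of Id3 had the opposite sign, 0.71 (0.20 to 1.22, adjusted p = 0.763). Of the other members, the intervals of Smad6 and Bmp2 reached beyond 1 log2 unit in both conditions.

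Smad7 in GF livers differed by -0.69 (95% interval -1.31 to -0.08, limma adjusted p = 0.226) with overlapping libraries. Id2 was higher in males by 0.58 in GF (-0.04 to 1.20, adjusted p = 0.313) and by 0.59 in CV livers (-0.03 to 1.21, adjusted p = 0.928). With the deposited scaling neither gene passed. Without CV male 3, the CV differences were 0.68 for Id3 (limma adjusted p = 0.936) and 0.43 for Id2 (adjusted p = 1). With the length and GC trend removed, the GF difference of Id1 was -1.14 and passed (adjusted p = 0.0164). Over 26 alternatives its adjusted p ranged from 0.0164 to 0.71. Scaled to all reads, Id2 in GF livers differed by 0.92 and passed (adjusted p = 0.0488, range over 26 alternatives 0.0488 to 0.728).

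To place the members in their pathway, 78 other genes of BMP and TGF-beta signalling were followed, of which 62 passed the filter. In limma over both sexes 16 were higher and 11 lower in CV livers, or 25.8% and 17.7%, where 32.3% and 28.7% of all genes were called. Their median log2 change was 0.20 against 0.07 for all genes. In males 8 were higher and 4 lower (12.9% and 6.45%, against 14.1% and 15.4% of all genes). In females 12 were higher and 13 lower (19.4% and 21.0%, against 29.8% and 26% of all genes). The pathway genes were thus called no more often than genes in general. Relative to all reads the split over both sexes was 34 higher and 3 lower, and relative to reads outside the 7 loci it was 8 and 18. Whether the condition difference of these genes depended on the labelled sex was tested as an interaction in limma, which called 0 of 62 at an adjusted p under 0.05 and had 9 at an unadjusted p under 0.05. edgeR and DESeq2 called 0 as well, with 10 and 11 at an unadjusted p under 0.05. Without CV male 3, whose label is in doubt, limma called 0 and had 8 at an unadjusted p under 0.05. Without CV male 1 it called 1 and had 14. The share of all genes with such an unadjusted p was not counted, so these counts are not set against genes in general.

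Of 13 ligand genes tested, 5 were higher and 3 lower in CV. Gdf2, which encodes the circulating ligand BMP9 and is made by stellate cells, rose by 1.03 ± 0.16 (SE; limma adjusted p = 4.05e-05) over both sexes. It averaged 77.6 ± 2.65 (SD, n = 3) normalized reads in GF males and 115 ± 16.2 in CV males, which did not pass alone (0.55, limma adjusted p = 0.0716), and 63.8 ± 6.41 and 183 ± 12.4 in females (1.51, adjusted p = 5.06e-05). The activin chain genes Inhbe (1.46 ± 0.24, limma adjusted p = 7.84e-05) and Inhbc (1.29 ± 0.20, adjusted p = 5.13e-05) rose with it, and both are made mainly in hepatocytes. The 3 ligands called lower, named here after their values were seen, were Inhba, a further activin chain gene (-1.18 ± 0.22, limma adjusted p = 0.000242), the stress-induced Gdf15 (-0.85 ± 0.26, adjusted p = 0.00998) and Tgfb2 (-1.11 ± 0.41, adjusted p = 0.0274). Scaled to all reads, Gdf15 (-0.30) and Tgfb2 (-0.62) were not called. Bmp6, the endothelial ligand that sets hepcidin with iron load, averaged 5.85 to 16.2 normalized reads per group and changed by 1.48 ± 0.57 (adjusted p = 0.0343), a call kept in 4 of 12 fits that left out 1 library (lowest 0.94, without GF female 2) and lost relative to reads outside the 7 loci (1.14). Its exons overlap Txndc5 on the opposite strand, and whether the counting used strand is not given in the sources used here. Tgfb1 changed by 0.21 ± 0.28 (adjusted p = 0.539).

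Of 12 receptor genes, 1 rose and 1 fell. Tgfbr2, the TGF-beta type II receptor, rose by 0.64 ± 0.22 (SE; limma adjusted p = 0.0204), and its type I partner Tgfbr1 fell by 0.58 on the log2 scale (SE 0.19, adjusted p = 0.0169). Each call was kept in 10 of 12 fits that left out 1 library, and lost for Tgfbr1 without GF male 1 (-0.45) or CV female 2 (-0.51) and for Tgfbr2 without GF female 1 (0.50) or CV female 1 (0.56). Tgfbr1 was not called when scaled to all reads (-0.02) or with the length and GC trend removed (-0.28), nor Tgfbr2 relative to reads outside the 7 loci (0.18). The BMP receptors Bmpr1a (0.36 ± 0.21), Acvr1 (0.20 ± 0.19), Acvrl1 (0.65 ± 0.44) and Bmpr2 (-0.45 ± 0.21), the co-receptors Eng (0.04 ± 0.18) and Hjv (0.15 ± 0.20), and Tgfbr3 (-0.59 ± 0.27) were not called, with limma adjusted p from 0.0699 to 0.86. Scaled to all reads, limma called Bmpr1a (0.92), Acvr1 (0.76), Acvrl1 (1.19), Eng (0.60) and Hjv (0.71) higher. Relative to reads outside the 7 loci it called Bmpr2 (-0.91) and Tgfbr3 (-1.05) lower. With the length and GC trend removed, Bmpr1a was called higher (0.63, limma adjusted p = 0.012). Without the length and GC trend the change of Bmpr2 was 0.65 (adjusted p = 0.00816, range over 26 alternatives 0.00394 to 0.696).

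Among the 6 Smad genes that carry the signal, 1 rose and 2 fell. Smad5, a BMP-regulated Smad, had limma's smallest adjusted p of them, 0.0028, and fell by 0.70 on the log2 scale (SE 0.18) over both sexes. It averaged 163 ± 25.6 (SD, n = 3) normalized reads in GF males and 111 ± 18.9 in CV males, which did not pass alone (limma adjusted p = 0.0985), and 212 ± 52.1 and 117 ± 12.4 in females (adjusted p = 0.01). It was not called when scaled to all reads (-0.14) or with the length and GC trend removed (-0.36). Smad3, which TGF-beta receptors act on, fell by 0.64 (SE 0.21, limma adjusted p = 0.0149), and was not called when scaled to all reads (-0.09). Smad4, the shared partner, rose by 0.45 ± 0.16 (adjusted p = 0.0226), and was not called relative to reads outside the 7 loci (-0.01), with the trend removed (0.20), without CV female 1 (0.41) or without CV female 3 (0.42). Smad1 changed by 0.27 ± 0.17 (limma adjusted p = 0.171). It was called higher when scaled to all reads (0.83) and with the trend removed (0.45).

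Of 10 genes for extracellular or cell-surface antagonists and regulators, 3 rose and 1 fell. Chrd, whose product chordin binds BMP2 and BMP4 and keeps them from receptors, fell by 2.08 on the log2 scale (SE 0.24, limma adjusted p = 3.42e-06). It went from 112 ± 18.8 to 27.8 ± 7.20 (SD, n = 3) normalized reads in males and from 123 ± 32.8 to 27.8 ± 11.6 in females, with all CV libraries below the GF libraries of their sex. Such a separation held for 21.1% of the genes tested in males and for 31% in females. Chrd shares exon bases with Thpo on the opposite strand, which had 1159 reads over the 12 libraries against 761 of Chrd. Tmprss6, a protease that restrains hepcidin, rose by 1.30 ± 0.18 (adjusted p = 1.94e-05). Twsg1, which binds BMPs together with chordin, rose by 0.84 ± 0.19 (adjusted p = 0.00135).

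Of 10 intracellular regulators, 2 rose and 4 fell. Ppm1a, a phosphatase that removes the activating phosphates of Smads, rose by 1.02 ± 0.17 (limma adjusted p = 7.24e-05). Fkbp1a, whose product holds type I receptors inactive, rose by 1.25 ± 0.21 (adjusted p = 9.42e-05). Nedd4l, a ubiquitin ligase for activated Smads, fell by 1.20 (SE 0.19, adjusted p = 7.10e-05), while its change was -0.13 without the length and GC trend (adjusted p = 0.581, range over 26 alternatives 3.3e-09 to 0.581).

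Of 11 other target genes, 4 rose and the other 7 were not called. Hamp, which encodes hepcidin, averaged 7241 ± 6830 (SD, n = 3) normalized reads in GF males and 11820 ± 6534 in CV males, and 4421 ± 2007 and 10110 ± 2526 in females. Its change was 1.11 ± 0.40 (SE; limma adjusted p = 0.0245), and the call was kept in 7 of 12 fits that left out 1 library (lowest 0.83, without GF male 1, and 0.91 without CV male 3) and lost relative to reads outside the 7 loci (0.65). Hamp has a close paralog, Hamp2, so the division of reads between them is uncertain. Hamp2, looked at after its values were seen, changed in the opposite direction, by -0.78 ± 0.44, and was not called (limma adjusted p = 0.134). It was called lower with the length and GC trend removed (-1.06, adjusted p = 0.0257) and without CV male 3 (-1.26, adjusted p = 0.00178). Tgfbi, a matrix protein gene induced by TGF-beta, rose by 1.22 ± 0.17 (adjusted p = 2.16e-05). Klf10, an early TGF-beta response gene, rose by 0.73 ± 0.18 over both sexes (adjusted p = 0.00234), with 1.50 in males and -0.04 in females, and was not called relative to reads outside the 7 loci (0.27). Junb rose by 0.64 ± 0.22 over both sexes (limma adjusted p = 0.0185), with 1.00 in males and 0.28 in females, which did not pass alone (adjusted p = 0.46). It was not called with the trend removed (0.27) or relative to reads outside the 7 loci (0.18). Junb overlaps Prdx2 on the opposite strand, which had 13242 reads over the 12 libraries against 2855 of Junb. Atoh8, a further BMP target of hepatocytes, changed by 0.41 ± 0.23 (limma adjusted p = 0.124), and was called higher when scaled to all reads (0.97). Id4, the fourth Id gene, was below the filter with group means of 3.18 to 7.11 normalized reads.

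The E proteins are the partners that Id proteins capture. Tcf4 fell by 1.02 on the log2 scale (SE 0.17, limma adjusted p = 8.70e-05) and Tcf12 by 0.97 (SE 0.19, adjusted p = 0.000312). Tcf3 changed by -0.50 ± 0.24 (adjusted p = 0.0795). Scaled to all reads, neither was called (-0.46 for Tcf4 and -0.41 for Tcf12). With the length and GC trend removed, Tcf4 changed sign and was called higher in CV (0.41, limma adjusted p = 0.0225). Tcf12 then changed by 0.00 (limma adjusted p = 0.991). Over 26 alternatives the adjusted p ranged from 3.8e-08 to 0.984 for Tcf4 and from 6.35e-07 to 0.991 for Tcf12.

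**Figure D5:**
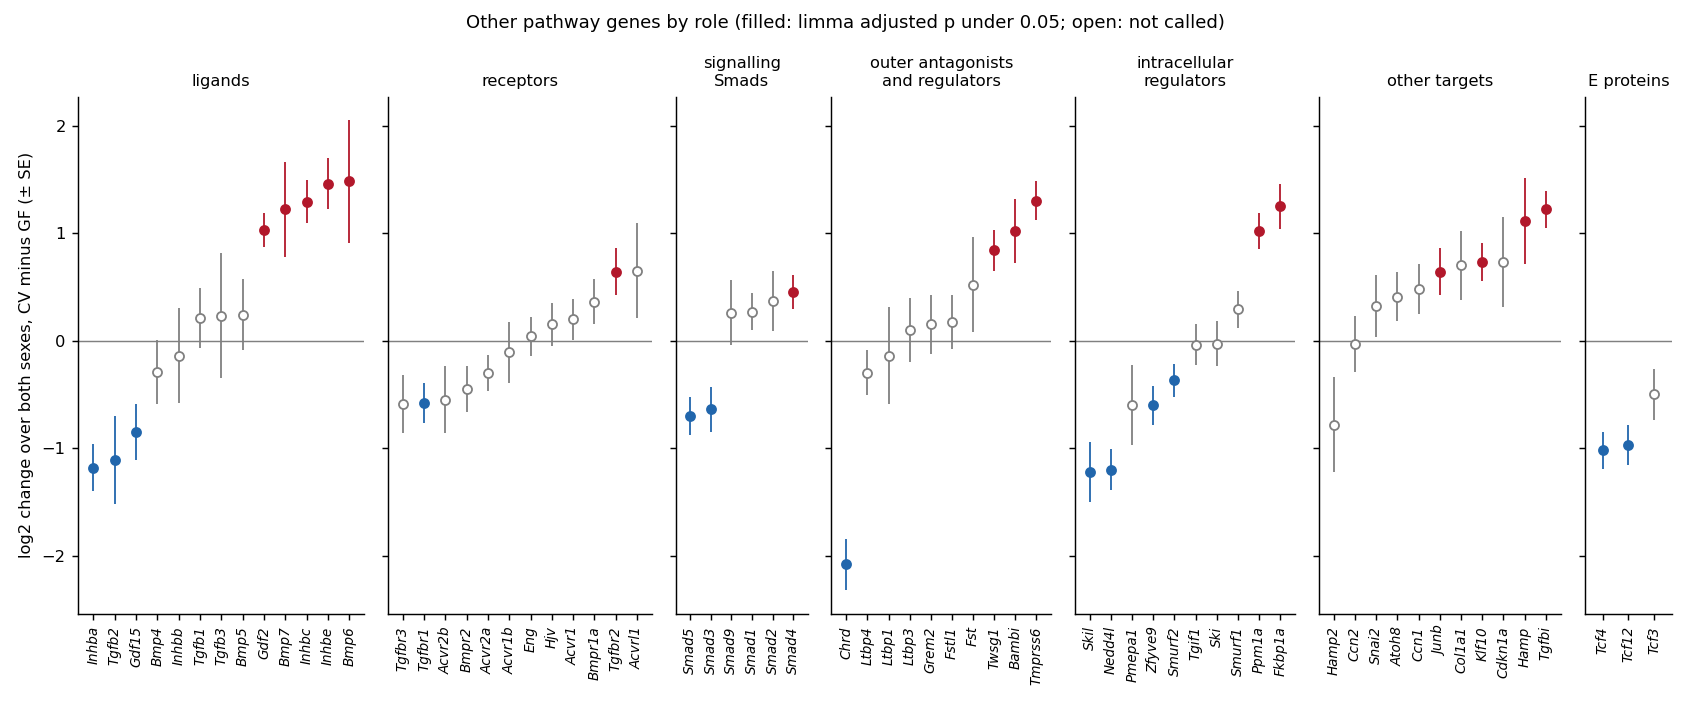
log2 change over both sexes between CV and GF livers with its SE (vertical axis) for the 62 pathway genes tested and 3 E proteins, grouped by role. Filled points passed limma at an adjusted p under 0.05, red above 0 and blue below, and of the 62 pathway genes 16 are red and 11 blue.

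Genes whose deviations from the group means were most like those of each member over the 12 libraries were then listed as a description, chosen from all genes tested. The highest Pearson correlations were 0.973 of Arhgef25 with Smad7, 0.965 of Dixdc1 with Smad6, 0.965 of Pkn2 with Bmp2, 0.956 of Gucy1b1 with Id2, 0.947 of Npr3 with Id3 and 0.897 of Mrpl47 with Id1. The next were Wipf3 and Prrc2b for Smad7, Dusp16 and Pkd2l2 for Smad6, Cd2ap and Smim22 for Bmp2, Fcgr1 and Atxn1 for Id2, Sfpq and Mir6236 for Id3, and Cwc25 and Nol8 for Id1, from 0.886 to 0.959. Mir6236 is 1 of the 7 abundant loci. Between members, the correlations ran from -0.24 (Id1 with Smad6) to 0.79 (Smad6 with Smad7). These points share library depth and composition, and no test was made of them.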

How the data were processed

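Poly(A)-selected stranded libraries of mouse liver were sequenced. Per the labels, the submitters' processing notes name HTSeq 0.6.1p1, DESeq2 and build GRCm38, and an aligner is not given in the sources used here. The paper linked to the series describes a brain experiment, so no method was taken from it. The deposited unit is a size-factor-normalized signal, that is, the read counts of a gene after the authors had divided them by 1 factor for each library. Whole reads were recovered from 100% of the values within 0.01 reads.

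GENCODE release 21 on GRCm38 gave coordinates for 97.9% of the identifiers, and RefSeq windows on GRCm38.p6 the sequences. Values were tested as log2(value + 1) with limma 3.58.1 in R 4.3.3 on genes of mean value of at least 10 (11782 genes), with 4 group means over all 12 libraries, a variance trend, and Benjamini-Hochberg adjustment at 0.05. Fold changes on this scale are understated for low genes. As an alternative, the quasi-likelihood count test of edgeR 4.0.16 on the recovered reads called 7316 of 11782 genes over both sexes, and limma 7194 of 11782. DESeq2 1.42.0 was run as well. Scripts were tested on simulated data.

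The members, the gene lists, the motifs and the 7 abundant loci (mt-Rnr1, mt-Rnr2, Lars2, Mir6236 and 3 predicted genes) were chosen with earlier results of these data known. Pathway genes were named if they had 1 of the 3 smallest adjusted p-values of their role, or, whatever their p, belonged to a set of 18 genes of BMP signalling and E proteins. The 3 genes most like each member were named.

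Alternatives were other scalings, pseudocounts and filters, a threshold of 0.01, a share covariate, a length and GC trend removed by loess, each library left out, and the replicate number as a block. The labels do not say that replicate numbers pair mice of different groups, and the correlation of same-numbered libraries was over 0.1 in each of 3 pairs only between CV males and CV females (0.19, 0.12 and 0.17), whose pairing comes from the data alone.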

Additional observations from a re-analysis of the deposited data

Results flagged for a closer look

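Smad6 in GF male 1 stood far from the other GF libraries. Its 78.8 normalized reads (88 reads) compare with 20.0 to 34.5 in the other 5 GF livers, and the gap was 0.753 of the range of the 6 libraries. Of 12 measures checked, 6 genes in 2 conditions, this was the 1 with such a library, where chance gives about 1 in 20.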

How the results depend on the processing

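Reads limit the low members most, since Smad6 rested on 11 to 22 reads in 5 of 6 GF libraries. Between 25 and 26 alternatives were computed for each value of a gene. Of 310 values of the members' condition differences, 265 moved by less than 1 SD, 36 moved by more, towards 0 or away from it, and kept their sign, and 9 changed sign. Many of the 265 could not move. Leaving out a library of the other labelled sex, changing the filter or adding the replicate block leaves the log2 change of a gene as it was. The 265 are therefore no measure of stability. With the length and GC trend removed, Id1 and Id3 in females went to -0.02 and -0.01, and Smad7 in females went to 0.39 when scaled to all reads. With the mitochondrial ribosomal RNA share as covariate Smad7 in females went to 1.14 and Bmp2 to 0.84 in males and 3.25 in females, and with the share of the abundant loci these were 2.59, 0.69 and 2.35. Of the variance of these shares, 93.5 and 95.3% lay between the groups.

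Among pathway genes over both sexes, the trend removal gave 0.65 for Bmpr2, 0.41 for Tcf4 and 0.00 for Tcf12, and scaling to reads outside the 7 loci gave -0.01 for Smad4. With the mitochondrial ribosomal RNA share as covariate Bmp6 was -2.38, Inhbe -0.42, Tgfbr1 0.30 and Smad4 -0.37, and with the share of the abundant loci Bmp6 was -0.81, Tgfbr1 1.21, Smad3 0.60, Smad4 -0.45 and Smad5 0.83. The limma fits with a share covariate called 0 pathway genes over both sexes, 0 in males and 0 in females, under each of the 2 shares. At an unadjusted p under 0.05 they had 13, 12 and 11 with the former share and 10, 12 and 7 with the latter. How many of all genes reached that level in these fits was not counted. Without a share covariate and at an adjusted p under 0.05, edgeR called 29, 12 and 25 and DESeq2 28, 14 and 28. A threshold of 0.01 left 17 over both sexes, 5 in males and 14 in females. Leaving out 1 library gave 6 to 14 in males, the lowest being 6 without CV male 1 and 7 without GF male 1 or GF male 3. It gave 22 to 28 over both sexes and 17 to 28 in females.

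Of the sex differences of the members in GF livers, 1 passed when scaled to all reads (Id2) and 1 with the trend removed (Id1). The replicate block gave 27 pathway genes over both sexes, 12 in males and 27 in females, and 0 members in either sex contrast. The cause of these changes was not tested.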
